A study of Homo sapiens with 8 samples.

Results

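The IL4R and IL21R locus is a window of 220001 bp on chromosome 16, from 27280000 to 27500000 in build hg19, that holds the genes of 2 cytokine receptors side by side. Its members are all peaks of 6 deposited peak lists that overlap the window, 138 of 224694 peaks on chromosomes 1 to 22 and X. The window was chosen by its NIPBL peaks, which cluster there in these same libraries, so the NIPBL count and density are given as descriptions, with no test. All libraries were made from untreated GM12878, an established lymphoblastoid cell line that derives from a B lymphocyte, by chromatin immunoprecipitation and sequencing (ChIP-seq), in which DNA crosslinked to a protein is recovered with an antibody. There were 2 libraries each for NIPBL, MED1 and SMC1A, and each list was called against the pool of 2 whole cell extract libraries, so all 6 lists share 1 control. The labels call the experiments duplicates and name no separate cultures. Differences between replicates may therefore be technical or come from separate cultures, which cannot be told apart here. It is 1 cell line, and peak lists hold no expression values, so its B cell markers could not be checked here.

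IL4R encodes the alpha chain of the interleukin-4 receptor, which also serves interleukin-13 and signals mainly through JAK kinases and STAT6. In B lymphocytes this signal promotes class switching to IgE. IL21R encodes the receptor chain for interleukin-21, which pairs with the common gamma chain, signals mainly through STAT3 and drives B cells towards plasma cells. NIPBL loads cohesin, the ring that forms DNA loops and of which SMC1A is a subunit. MED1 belongs to Mediator, through which enhancer-bound factors reach RNA polymerase II. Mutations of NIPBL and SMC1A cause Cornelia de Lange syndrome, the subject of the series.

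Both genes read towards higher coordinates. In hg19 the IL4R interval runs from 27325229 to 27376099 (50.9 kb) and the IL21R interval from 27413483 to 27463363 (49.9 kb). In the RefSeq gene order of GRCh38.p14 no other gene starts between them. NSMCE1 and the lncRNA NSMCE1-DT come before IL4R, and the lncRNAs LOC124903668 and IL21R-AS1 and then GTF3C1 come after the start of IL21R. Promoters of both genes are shown, picked by gene name and not by peaks. The IL21R promoter is the one RefSeq lists, at an inner start that was not matched to peaks, and not at the outer start of the gene. They are RefSeq sequences of GRCh38.p14, plus strand, 250 bases before to 50 after the listed start. Capitals mark matches to the motifs searched.
IL4R: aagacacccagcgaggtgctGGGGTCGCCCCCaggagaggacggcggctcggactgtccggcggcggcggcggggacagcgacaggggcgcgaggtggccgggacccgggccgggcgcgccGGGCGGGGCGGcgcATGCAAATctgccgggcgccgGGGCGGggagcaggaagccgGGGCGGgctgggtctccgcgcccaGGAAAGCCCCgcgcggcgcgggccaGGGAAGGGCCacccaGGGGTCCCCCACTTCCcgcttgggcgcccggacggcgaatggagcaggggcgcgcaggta
IL21R: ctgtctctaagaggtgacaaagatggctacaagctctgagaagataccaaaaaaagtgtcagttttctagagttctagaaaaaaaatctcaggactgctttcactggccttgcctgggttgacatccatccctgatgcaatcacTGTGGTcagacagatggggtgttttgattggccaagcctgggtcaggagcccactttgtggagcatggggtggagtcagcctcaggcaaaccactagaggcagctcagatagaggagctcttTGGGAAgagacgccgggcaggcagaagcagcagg

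The IL4R stretch, chr16:27313724-27314023 in GRCh38.p14, had 79.3% G and C and 42 CG pairs. The IL21R stretch, chr16:27427021-27427320, had 51.0% and 2. The median over the 35116 promoters of the table was 58.7% (quartiles 47.0% and 68.0%). Motifs were searched on both strands. In the IL4R stretch the octamer ATGCAAAT, known from immunoglobulin promoters, occurred at 1 position (1.77% of all promoters hold it), the GC box GGGCGG at 4 (45.0%) and the ETS core GGAAGT at 1, on the minus strand (22.8%). An NF-kappaB pattern of 3 G, 2 free bases, 3 T and 2 C occurred there at 1 position on the minus strand (1.91%). A looser form with 5 free bases between 3 G and 2 C, which contains it, occurred at 6 positions, some of them overlapping (58.7%). The IL21R stretch held the RUNX core TGTGGT once (13.1%) and TGGGAA of RBPJ once (24.0%). The STAT pattern TTCNNNGAA (7.66%), its form with 4 free bases (6.44%), the AP-1 site TGANTCA (7.71%) and the TATA box TATAAA (11.5%) had no match in these letters of either stretch. The listed start of IL4R lay 218 bp inside the outer end of its gene in GRCh38. The listed start of IL21R lay 25.1 kb inside its gene, so that gene has an outer start and an inner one. Coordinates were not carried between builds, and peaks are placed on hg19 by the gene intervals alone.

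In the window the NIPBL lists held 25 and 17 peaks (replicates 1 and 2), the MED1 lists 20 and 32 and the SMC1A lists 16 and 28. Relative depth, estimated from the peak values, was 0.743 to 1.00 of the deepest library (MED1 replicate 1). The estimate assumes 1 fragment length in all libraries. It was 1.00 and 0.755 for MED1 replicates 1 and 2, and 0.752 and 0.743 for SMC1A. What part depth had in the peak numbers was not tested. Median pileups at the summits of the window's peaks were 25.5 to 36 fragments per library, and the lowest was 12. Values are the authors' fold enrichment at a peak's summit over the control. They rank peaks inside 1 list, and a percentile gives the share of that list at or below a value. A region is the merge of overlapping peaks of both replicates. There were 15 NIPBL, 14 MED1 and 16 SMC1A regions in the window. The NIPBL count was 25 without NIPBL replicate 2, the MED1 count was 32 without MED1 replicate 1, and the SMC1A count was 28 without SMC1A replicate 1. These are all peaks of the library that was left, with no match in a second library required. Over 13773 stretches of the same width along the chromosomes, the median was 0 regions for NIPBL, 0 for MED1 and 3 for SMC1A. At least as many regions as here stood in 0.232% of stretches for NIPBL, 0.472% for MED1 and 1.59% for SMC1A. The choice of the window fixes the NIPBL share. It can raise the MED1 and SMC1A counts too, since 70.2% and 62.4% of all NIPBL regions overlapped a region of those proteins. Nothing is read from these shares.

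**Figure D1:**
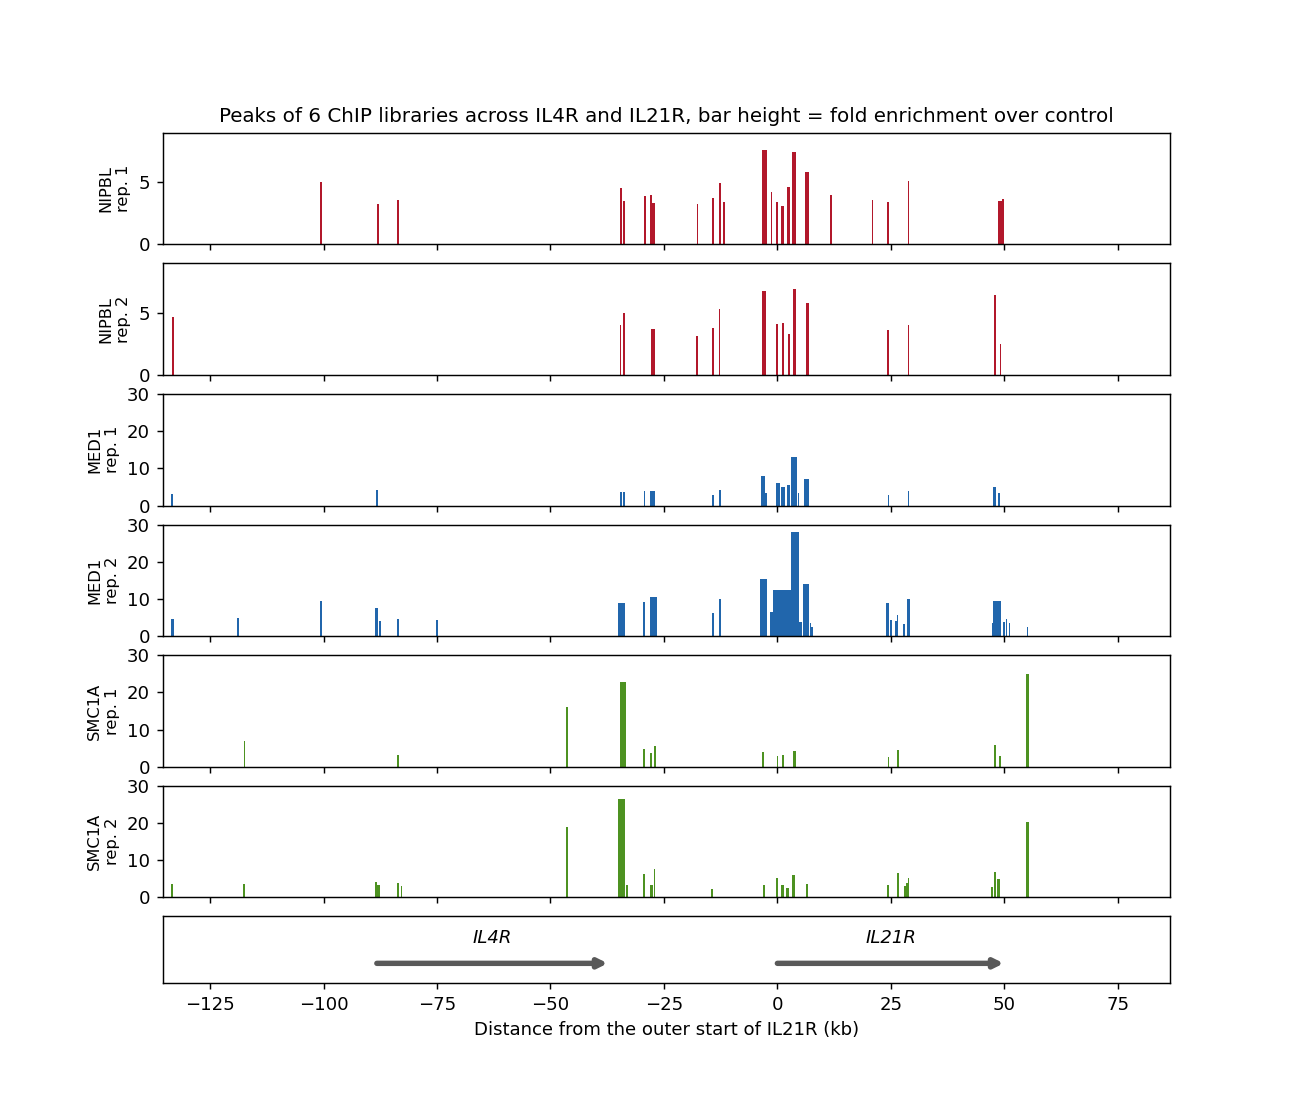
Peaks of the 6 libraries along the window, by distance from the outer start of IL21R in kb, with bar height giving fold enrichment over the control and arrows showing the 2 genes. Bars narrower than 0.35 kb are drawn 0.35 kb wide, and the NIPBL axis ends at 9 while the others end at 30. NIPBL and MED1 crowd around the IL21R start, and the tallest SMC1A bars stand 88.97 kb apart on either side of them.

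The 15 NIPBL regions left IL4R almost bare and filled the gap between the genes and the front of IL21R. By summit, 8 lay between the genes and 7 in the IL21R interval, with 0 in the IL4R interval, before it or after IL21R. Joining regions with gaps of at most 12500 bp gave 1 cluster of 12, chr16:27378711-27420475 (41.8 kb), then a pair at chr16:27437619-27442593 and a single region at the IL21R end. Of 7439 clusters in the series 4 held more NIPBL regions. The 12 became 20 when NIPBL replicate 2 was left out, 6 among peaks of −log10 q 5 or more and 7 among equal numbers of top peaks. They became 19 among regions of either replicate and 6 when gaps of at most 5 kb were joined. The cluster began 2.61 kb past the IL4R end, and 6 of its regions lay from 5 kb before to 8 kb after the outer IL21R start. Region widths were 376 to 1114 bp with a median of 575 bp, against a median of 473 bp for NIPBL regions of the whole series.

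NIPBL was strongest on both sides of the outer IL21R start. Region 7, chr16:27409989-27411098, had its summit 3.07 kb before that start, with NIPBL fold enrichments of 7.58 and 6.77 and pileups of 66 and 53 fragments. Region 11, chr16:27416696-27417567, had its summit 3.64 kb inside the gene, with 7.48 and 6.89 and 55 and 44 fragments. These were percentiles 96.5 and 93.6 of the NIPBL lists for region 7, and 96.3 and 94.1 for region 11. Region 12, chr16:27419627-27420475, had 5.80 and 5.82, and region 6, chr16:27400516-27401123 between the genes, had 4.98 and 5.32. In these 4 regions the replicates stood close to each other. The mean percentile was 75 or more in these 4 regions and under 50 in 8 of the 15, so most NIPBL regions here ranked in the middle or below within their lists. Fold enrichment was higher in replicate 1 at 8 regions and in replicate 2 at 7. Across the 15 regions, which share libraries, the ranks of replicates 1 and 2 had a Spearman rho of 0.554. Summits of the replicates lay a median of 43 bp apart, with 13 of 15 within 100 bp.

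MED1 accompanied nearly all NIPBL regions here, and under a looser call it did so in the whole series too. Of 15 NIPBL regions 14 overlapped a MED1 region, beside 70.2% of the 11635 NIPBL regions of the series. That count was 14 when either MED1 replicate was left out, 17 of 25 when NIPBL replicate 2 was, and 9 when summits had to lie within 200 bp. With SMC1A it was 9 of 15, beside 62.4%, which is a share close to the background. Counted without SMC1A replicate 1 it was 13 of 15, among equal numbers of top peaks 2 of 13, and among regions of either replicate 18 of 26. No series share was worked out under these other settings, so their counts are not read against 70.2% or 62.4%. Peaks of any 1 MED1 library met 14 of 15 (93.9% of all NIPBL regions) and peaks of any 1 SMC1A library met 13 (82.1%). By this looser call both shares were close to the background. Both partner regions stood at 9 of 15, beside 47.8%, and 9 of 15 NIPBL regions held a peak in all 6 libraries, beside 47.1%. From the other side, 11 of 14 MED1 regions overlapped NIPBL (49.3% in the series) and 8 of 14 overlapped SMC1A (52.2%), and nothing is read from the first, which the choice of the window raises. Region 4, chr16:27395537-27395935, was the exception to MED1, with NIPBL of 3.26 and 3.10, the lowest mean percentile of the 15 (17.5), and no MED1 or SMC1A peak in any library. Region 6 had MED1 of 4.14 and 9.99 and no SMC1A peak. Regions 5, 10, 12 and 14 had MED1 in both replicates and SMC1A in replicate 2 alone. Region 5, chr16:27399131-27399527, had NIPBL of 3.76 and 3.79, MED1 of 2.91 and 6.18, and SMC1A of 2.35 in replicate 2. Region 3, chr16:27385446-27386559, was the widest of the 15, and all 6 libraries had a peak there. Its fold enrichments were 3.96 and 3.72 for NIPBL, 3.89 and 10.5 for MED1, and 5.48 and 7.78 for SMC1A.

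**Figure D2:**
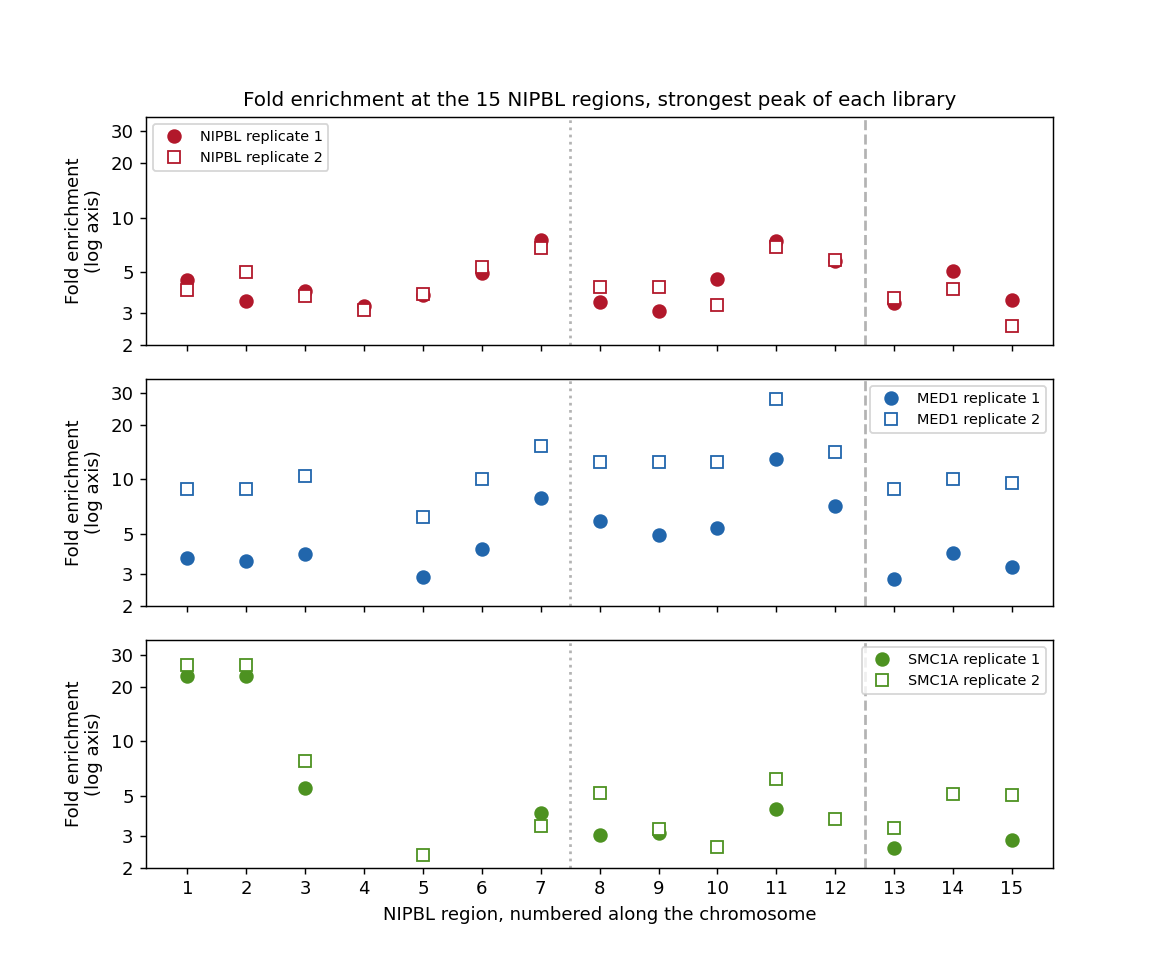
Fold enrichment of the strongest overlapping peak in each library at NIPBL regions 1 to 15, on a log axis, with filled circles for replicate 1 and open squares for replicate 2 and no symbol where no peak was called. The dotted line precedes region 8, which covers the outer IL21R start, and the dashed line ends the cluster of 12. NIPBL and MED1 are highest at regions 7 and 11, whereas SMC1A is highest at regions 1 and 2.

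MED1 was highest at NIPBL region 11, inside the front of IL21R, and next at region 7 before it. For NIPBL these regions stood close together, and region 7 had more fragments in both libraries. At NIPBL region 11 MED1 had fold enrichments of 12.9 and 27.9 and pileups of 99 and 169 fragments, percentiles 99.0 and 99.6 of the MED1 lists. At region 7 it had 7.89 and 15.4, and at region 12 it had 7.15 and 14.1. The 3 strongest MED1 regions were these 3, while the 3 strongest NIPBL regions were also 11, 7 and 12. Over the 14 NIPBL regions with MED1, rank correlations of NIPBL with MED1 were 0.60 in replicates 1 and 0.533 in replicates 2, and both proteins were read against the same control. With SMC1A they were 0.477 over 9 regions and 0.253 over 13. Replicate 2 of MED1 stood above replicate 1 at 14 of 14 MED1 regions, with medians of 4.03 in replicate 1 and 9.75 in replicate 2. NIPBL regions 8, 9 and 10 shared 1 MED1 peak of replicate 2, so its value of 12.54 counts for all 3. Likewise regions 1 and 2 shared 1 MED1 peak of replicate 2 and 1 SMC1A peak in each replicate.

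The widest MED1 region of the window covered the outer IL21R start. It ran 3832 bp, chr16:27412625-27416456, against a median of 1103.5 bp for the 14 MED1 regions here and 769 bp in the whole series. Its width came from 1 peak of replicate 2, where replicate 1 had separate peaks such as one of 962 bp over the start and one of 908 bp after it. All 6 libraries had a peak over that start. NIPBL region 8, chr16:27413142-27413716, had 3.44 and 4.13 with 44 and 37 fragments, and MED1 had 5.93 and 12.54 with 68 and 118 fragments. SMC1A had 3.02 and 5.20 with 29 and 38 fragments, at percentiles 3.68 and 34.2 of its lists. NIPBL stood at percentiles 32.4 and 52.0 on the start itself. Region 9, chr16:27414351-27414880, had NIPBL of 3.05 and 4.15, MED1 of 4.92 in replicate 1 and SMC1A of 3.09 and 3.27. Region 10, chr16:27415688-27416269, had NIPBL of 4.62 and 3.30, MED1 of 5.43 in replicate 1 and SMC1A of 2.61 in replicate 2 alone. Each was higher than region 8 for NIPBL in 1 replicate and lower in the other, whereas regions 7, 11 and 12 were higher in both. The control estimate at the NIPBL summits of region 8 was 12.1 and 8.20.

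The outer start of IL4R looked different. MED1 was called there in both replicates, with fold enrichments of 4.27 and 7.65 and summits 68 and 104 bp inside the interval. NIPBL replicate 1 had a peak of 3.24 (21 fragments) with its summit 170 bp inside, and NIPBL replicate 2 had none within 1 kb. SMC1A replicate 2 had 2 peaks, of 4.12 and 3.48, on either side of the start and SMC1A replicate 1 had none within 1 kb. The NIPBL and SMC1A calls at this start therefore each rested on 1 library. A missing call says that no peak passed the authors' threshold in that library, not that the protein was absent. Inside IL4R a further place, near 4.6 kb, had a peak of NIPBL replicate 1 (3.56), of MED1 replicate 2 (4.75) and of both SMC1A libraries (3.17 and 3.82).

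Deep inside IL21R lay the pair of NIPBL regions 13 and 14. Region 13, chr16:27437619-27438046, had its summit 24.4 kb inside the interval. Fold enrichments there were 3.38 and 3.60 for NIPBL, 2.81 and 8.89 for MED1, and 2.58 and 3.31 for SMC1A. The inner RefSeq start of IL21R lies 25.1 kb inside the gene in GRCh38, a distance in another build that was not matched to these peaks. Region 14, chr16:27442218-27442593, had NIPBL of 5.11 and 4.04, MED1 of 3.91 and 10.1, and SMC1A of 5.10 in replicate 2 alone. At the IL21R end, region 15, chr16:27462109-27462911, showed NIPBL at 3.51 and 2.52, MED1 at 3.29 and 9.51, and SMC1A at 2.86 and 5.04. The 9.51 belongs to a wide MED1 peak, chr16:27461045-27462810, whose summit at 27461427 lay before region 15. About 1 kb before region 15 stood the strongest NIPBL peak called in 1 library, of replicate 2 at chr16:27461224-27461586. That peak had 6.41 (33 fragments, percentile 91.8) with MED1 and SMC1A peaks in both of their replicates and no peak in NIPBL replicate 1. Its MED1 peak of replicate 2 was the same wide peak, so 9.51 counts for both places.

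SMC1A followed another pattern, with 3 strong regions and 13 weak ones. The strongest, chr16:27378435-27380055, had its summit 3.53 kb past the IL4R end, with fold enrichments of 22.9 and 26.4 and pileups of 162 and 185 fragments. The next, chr16:27468192-27468864, began 4.83 kb past the IL21R end, with 24.9 and 20.3 and 176 and 189 fragments. The third, chr16:27366916-27367387, lay in IL4R, 8.92 kb before its end, with 16.1 and 18.8. The mean percentiles of these 3 were 90.3, 87.3 and 77.6 of the SMC1A lists, and the fourth stood at 41.5. All 15 NIPBL regions lay from the first to the second of these SMC1A regions, whose summits were 88.97 kb apart. So did 12 of 14 MED1 regions and 13 of 16 SMC1A regions, the bounds included. The bounds were picked as the strongest SMC1A regions, and the NIPBL count follows in part from choosing a NIPBL cluster. No share for other spans was worked out.

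NIPBL met only the first of those 3 strong SMC1A regions. There NIPBL regions 1 and 2, chr16:27378711-27379194 and chr16:27379481-27379952, had fold enrichments of 4.55 and 4.02 and of 3.47 and 5.01. The nearest NIPBL summits lay 139 and 95 bp from the SMC1A summit. MED1 had 3.69 and 8.81 over region 1. At the second strong SMC1A region the nearest NIPBL summit lay 5.46 and 6.03 kb away, and MED1 had a peak of 2.53 in replicate 2 alone, at percentile 0.897 of its list. At the third the nearest NIPBL and MED1 summits lay at least 11.7 kb away. Of the 16 SMC1A regions 9 overlapped a NIPBL region and 11 a MED1 region, beside 14.3% and 17.5% of the 51020 SMC1A regions of the series. The first of these follows in part from choosing a NIPBL cluster. The second can be raised by the same choice, since 70.2% of all NIPBL regions overlapped a MED1 region. Nothing is read from either.

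SMC1A peaks elsewhere in the window were weak within their lists. Besides the 3 strong regions, mean percentiles ran from 4.31 to 41.5, and at the MED1 maximum (NIPBL region 11) SMC1A had 4.21 and 6.16, percentiles 18.7 and 42.9. At NIPBL region 7 it had 4.01 and 3.41, percentiles 16.1 and 9.25. Peaks at or below percentile 25 numbered 3 of 20 and 8 of 32 in the MED1 libraries, against 9 of 16 and 17 of 28 in the SMC1A libraries. Median percentiles of fold enrichment over the window's peaks were 53.3 and 56.8 in the MED1 libraries and 20.5 and 14.9 in the SMC1A libraries. The means were 55.0 ± 2.46 for MED1 and 17.7 ± 3.90 for SMC1A (SD, n = 2 each), a difference of 37.3 points. A two-sided exact permutation test over the 4 libraries gave p = 0.333 and adjusted p = 0.667 over 2 tests, where 0.333 is the smallest p that this design allows. The percentiles come from lists of unequal length, with 18131 and 45046 peaks for MED1 and 56510 and 68228 for SMC1A. With equal numbers of top peaks per library the value was -12.3 points (exact permutation p = 1), and 3 SMC1A regions were then left. Percentiles in that setting were still those of the full lists, so the cut kept only high percentiles in the longer lists. Nothing is read from its sign. At the deposited lengths, a difference between the proteins cannot be told apart from one of list length. The NIPBL medians were 45.8 and 52.0 and entered no test.

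**Figure D3:**
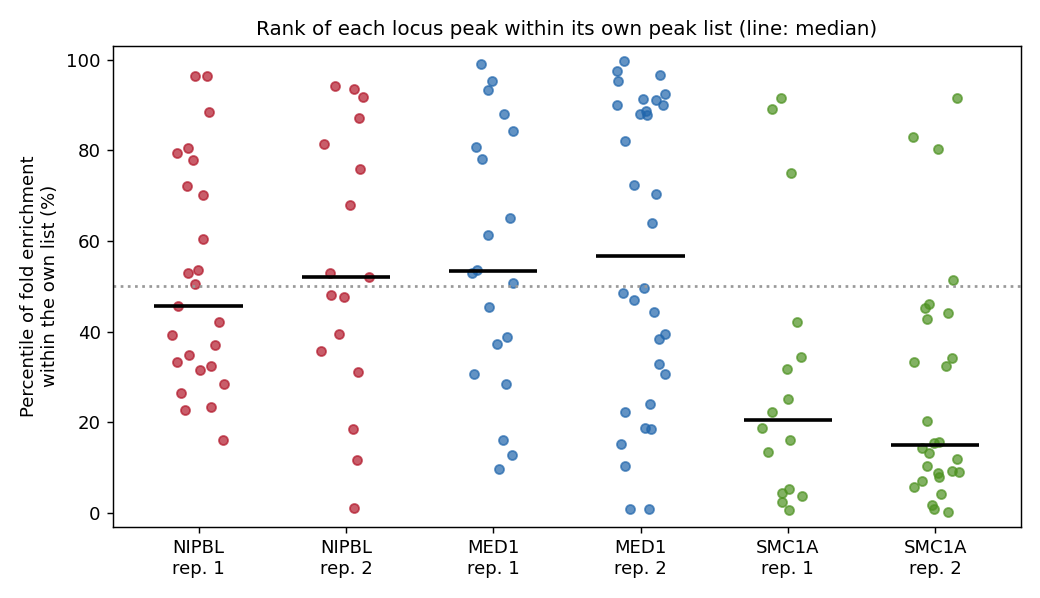
Percentile of fold enrichment within its own list for every peak of the window, by library, with a line at the median and a dotted line at 50. MED1 medians of 53.3 and 56.8 stand above SMC1A medians of 20.5 and 14.9, while 2 and 3 SMC1A peaks reach percentile 75 (sideways scatter has no meaning).

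Peaks covered 5.13% and 10.7% of the window in the MED1 libraries (11289 and 23534 bp) and 3.17% and 5.76% in the SMC1A libraries (6976 and 12674 bp). NIPBL peaks covered 5.26% and 3.34% (11563 and 7350 bp). The MED1 mean of 7.91% ± 3.94 exceeded the SMC1A mean of 4.47% ± 1.83 (SD, n = 2 each) by 3.45 points. The libraries overlapped in their values, and a two-sided exact permutation test gave p = 0.667 and adjusted p = 0.667. The smallest p that this design allows is 0.333. The difference was 0.665 points without MED1 replicate 2 and 6.23 without MED1 replicate 1. It was 5.38 with equal numbers of top peaks. Coverage was concentrated in the gap between the genes and in IL21R. Between the genes it was 13.8% and 10.4% for NIPBL, 10.9% and 20.4% for MED1 and 8.05% and 10.8% for SMC1A. In IL21R it was 10.7% and 6.51% for NIPBL, 12.7% and 23.7% for MED1 and 4.85% and 10.8% for SMC1A. In IL4R, a gene of nearly the same length, it was 1.53% and 0% for NIPBL, 0.716% and 2.70% for MED1 and 1.24% and 3.43% for SMC1A. In each of the 6 libraries coverage was higher in IL21R than in IL4R. For the NIPBL libraries this follows in part from choosing a NIPBL cluster. The same choice can raise MED1 and SMC1A coverage in IL21R, since 70.2% and 62.4% of all NIPBL regions overlapped a region of those proteins. Nothing is read from this difference in any of the 6 libraries. The libraries of 3 proteins are not replicates of each other, so no test was made of coverage in the 2 genes.

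**Figure D4:**
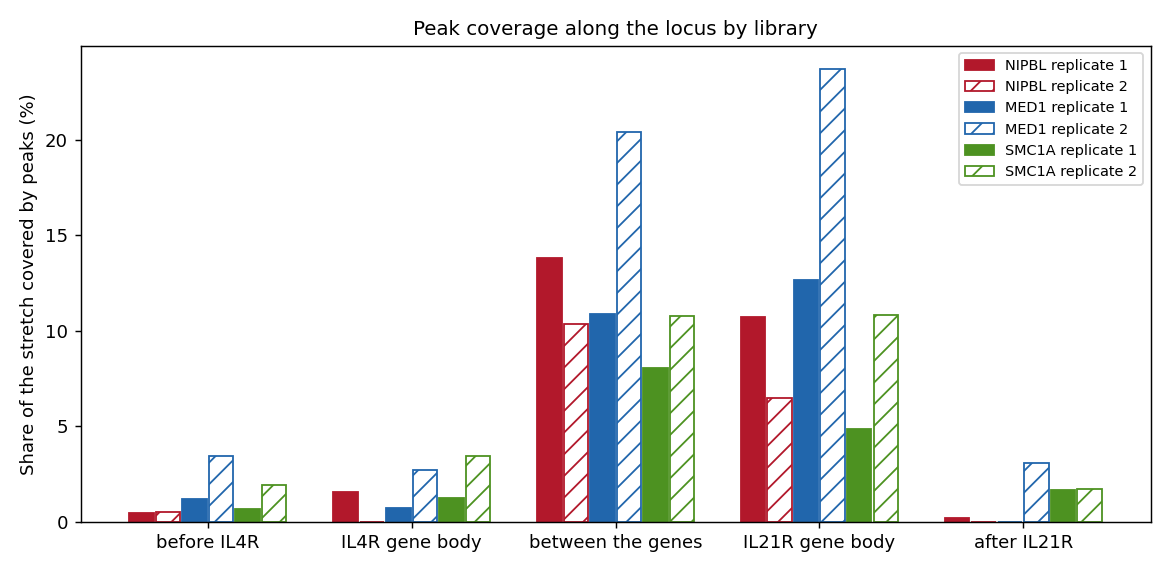
Share of each stretch of the window covered by peaks, in percent, by library (filled bars replicate 1, hatched bars replicate 2). Every library covers more of the IL21R gene body than of the IL4R gene body. For NIPBL this follows in part from the choice of the window, which can raise MED1 and SMC1A coverage there too. MED1 replicate 2 reaches 23.7% in IL21R.

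The other calls came from a single library. Of the NIPBL peaks 9 of 25 in replicate 1 and 2 of 17 in replicate 2 had no counterpart. So 16 of 25 and 15 of 17 recurred, beside 55.6% and 79.3% of those lists, and 3 of the 9 lay where no other library had a peak. All 20 MED1 peaks of replicate 1 and all 16 SMC1A peaks of replicate 1 recurred in replicate 2, beside 99.0% and 92.0% of those lists. In replicate 2, 14 of 32 MED1 peaks and 16 of 28 SMC1A peaks recurred in replicate 1, beside 33.5% and 75.6%. The 3 MED1 regions without a NIPBL region each overlapped a NIPBL peak of 1 library. They were the window's edge at chr16:27279829-27280458, the IL4R start, and chr16:27383803-27384407. SMC1A regions with no NIPBL peak in either library numbered 4 of 16, and 2 of those also lacked MED1. No series share was worked out for these counts, nor for the 3 of 9 above, so nothing is read from them.

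At the low edge of the window, NIPBL replicate 2, both MED1 libraries and SMC1A replicate 2 had a peak within 0.3 kb of the border, with fold enrichments of 4.65, 2.999 and 4.56, and 3.60. The nearest NIPBL peaks outside that edge, 33.4 and 14.3 kb from it in replicates 1 and 2, had 2.75 and 2.54. Past the high edge the next NIPBL peak stood at least 692 kb from the border, with 2.75 in replicate 1 and 2.86 in replicate 2. The next SMC1A peaks past the high edge, 27.4 kb from the border, had 7.27 and 8.21.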

How the data were processed

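ChIP-seq of NIPBL, MED1 and SMC1A was made in GM12878 cells in 2 libraries each. The authors took each library by itself and both whole cell extracts, pooled, as its control, per the labels. Trimmomatic 0.33, BWA 0.7.12, MACS2 2.1.0 and the build hg19 are named in the submitters' processing notes, without settings. Fold enrichment, as deposited, is a linear ratio of summit signal to control. The −log10 p and q of a summit, as deposited, rate its evidence. The deposited summit offset placed the summits, and the deposited score was not used. Read totals were not used here.

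Rows were put in 1-based coordinates, and chromosomes 1 to 22 and X were kept. Replicate peaks that overlapped by at least 1 bp were merged, and regions had to occur in both. Factors shared a region with 1 bp of overlap, and NIPBL regions separated by up to 12500 bp were joined into clusters. Pileups were solved from fold enrichment and p-value, taken as whole within 0.05, after a test on simulated data. All peaks of the window had a solution. The lowest control estimate of a list gave its relative depth, which assumes 1 fragment length in all libraries. MED1 and SMC1A were compared over libraries by exact permutation tests with Benjamini-Hochberg adjustment over 2 tests, in Python 3.11.15 with scipy 1.17.1. All 15 NIPBL regions are described. Other regions are named by rule at the gene starts (within 1 kb), as the 3 strongest or widest of a factor, or at the edges. The place 4.6 kb inside IL4R, the MED1 region chr16:27383803-27384407 and the NIPBL replicate 2 peak chr16:27461224-27461586 lie outside that rule and were chosen after their values were seen. The window, the members and the motif list were chosen with earlier results of these data known. Other genes of the pathway were not analysed here, since no hg19 annotation was used.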

Additional observations from a re-analysis of the deposited data

How the results depend on the processing

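Alternatives were a stricter −log10 q of 5, equal numbers of top peaks (15357 per library), other rules for matching replicates and partners, other stitching distances, and leaving out single libraries. Of 63 recomputed values, 46 kept their direction and stayed within 1.5 times the reported count, or kept the sign of an uncalled difference. With only peaks of −log10 q 5 or more the largest cluster held 6 NIPBL regions. With equal numbers of top peaks the window held 3 SMC1A regions, 2 NIPBL regions with SMC1A and a largest cluster of 7. The percentile difference of MED1 minus SMC1A was then -12.3, with percentiles still taken from the full lists. That sign follows from the cut, and nothing is read from it. With regions of either replicate the counts were 26 NIPBL, 32 MED1 and 28 SMC1A regions, 22 NIPBL regions with MED1, 18 with SMC1A and 19 in the largest cluster. Partner summits within 200 bp left 9 NIPBL regions with MED1, and stitching at 5 kb left 6 in the largest cluster. Series shares were not worked out under these settings or with single libraries left out.

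With 1 library of a protein left out, every peak of its other library counted as a region, with no match in a second library required. The counts are therefore peak numbers of single libraries, 17 to 25 for NIPBL, 20 to 32 for MED1 and 16 to 28 for SMC1A. NIPBL regions with MED1 ran from 14 to 17, those with SMC1A from 9 to 13 and the largest cluster from 12 to 20. The differences of MED1 minus SMC1A ran from 0.665 to 6.23 points of coverage and from 34.6 to 40.1 percentile points. Ranked by −log10 p the percentile difference was 32.6. With the replicate block the differences were the same 3.45 and 37.3 points (exact sign-flip permutation p = 0.5 in both, the smallest that 2 pairs allow). No label says that a replicate number marks a shared culture or day. A peak missing from 1 library is not evidence of absence, and what part depth had in such calls was not tested. MED1 replicate 1 and SMC1A replicate 1 had fewer peaks in the window than replicate 2. Their estimated relative depths were 1.00 against 0.755 for MED1 and 0.752 against 0.743 for SMC1A.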
